A study of Mus musculus with 9 samples.

Results

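The retinal transcriptome of mice with oxygen-induced retinopathy (OIR) was compared with that of mice kept in room air. The comparison used 6 of the 9 mouse retina samples of the study, 3 OIR mice and 3 control mice, and the other 3 samples, OIR mice given the HIF inhibitor 32-134D, entered 1 alternative fit only. All 6 mice were labelled as wild type C57BL/6, received the vehicle DMSO, and had their retinas taken for bulk RNA-Seq at P17. Control mice (labelled 1, 6 and 7) are given in the labels as room air with DMSO, and OIR mice (labelled 3, 5 and 6) as hypoxia with DMSO, a single intraocular injection being made at P12 in the OIR mice. The labels do not say when the control mice were injected or whether mice of a group shared a litter, so the p-values measure the spread between these mice alone. Of 54532 genes in the count table, 17166 passed the filter on low counts and were tested.

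In the OIR model, newborn mice are first kept in high oxygen, which obliterates the capillaries of the central retina, and are then returned to room air, where the poorly perfused inner retina is relatively hypoxic and new vessels form at its surface. The inner retina, which holds retinal ganglion cells (RGCs), amacrine cells, bipolar cells, and horizontal cells, is fed by the retinal vessels, whereas rod and cone photoreceptors are fed mainly by the choroid behind them. Amacrine cells are mostly inhibitory interneurons that release GABA or glycine, and the starburst amacrine cells among them also release acetylcholine. Müller glia span all layers and take up glutamate and potassium.

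Total counts per mouse ranged from 16864135 to 27213184, and no library was a copy of another. The first principal component of log2 CPM (CPM, counts scaled to library size, with a prior count of 2) held 51.1% of the variance and placed all 3 OIR mice (14.2 to 68.7) apart from all 3 control mice (-74.9 to -9.2). Control mouse 1 and OIR mouse 3 were female by their Xist counts, and the other 4 were male, so each group held 1 female and 2 males. The summed level of 18 rod genes, which mark retina, was 53150 to 94610 CPM in all 6 mice. Genes of skeletal muscle summed to at most 13.5 CPM and those of surface epithelium to at most 7.77 CPM. Lens genes summed to 23.1 to 1031 CPM, with the lowest value in control mouse 7 and the highest in OIR mouse 3.

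Expression of 494 genes was increased and that of 1277 genes was decreased in OIR retinas (edgeR quasi-likelihood test, Benjamini-Hochberg adjusted p below 0.05), which is 2.88% and 7.44% of the genes tested. The decreases included genes of amacrine cells, RGCs, and synaptic transmission, and the increases included immediate early genes and genes of reactive and Müller glia. The 3 OIR values lay entirely above the 3 control values for 2511 genes (14.6%) and entirely below them for 3156 genes (18.4%). With DESeq2, 907 (5.28%) of the same genes were called higher and 1656 (9.65%) lower. The median log2 fold change over all genes tested was 0.01. The number of calls rested on several single mice, with 55 higher and 175 lower without control mouse 6, 45 and 200 without control mouse 7, 105 and 247 without OIR mouse 5, and 231 and 754 without OIR mouse 6. All 1771 called genes kept their sign in these 4 fits. None of them overlapped between groups, so leaving out a mouse could hardly reverse a sign, and the kept sign is no support. Between the 2 females, the 1277 lower genes differed by a median log2 CPM of -0.66, and between the male groups by -1.16.

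The largest falls among called genes belonged to cholinergic amacrine cells. Chat (ENSMUSG00000021919, chr14:32408203-32465989, minus strand; GRCm38), which encodes the enzyme that makes acetylcholine, had a log2 CPM of 3.30, 3.70 and 3.97 in controls against -2.73, -1.83 and -1.84 in OIR mice, here and below in the order control mice 1, 6 and 7 and OIR mice 3, 5 and 6. The groups were far apart, and the 3 OIR values were close to the level of a few reads. Its log2 fold change was -6.41 ± 0.41 SE, adjusted p = 0.00308 (SE, standard error of the fold change). Slc18a3 (ENSMUSG00000100241, chr14:32462438-32464850), the vesicular acetylcholine transporter, lies within the Chat locus on the same strand and had a log2 CPM of 4.68, 4.54 and 5.23 in controls against -0.52, 0.42 and -1.12 in OIR mice. Slc5a7 (ENSMUSG00000023945, chr17:54273590-54299034), the choline transporter of cholinergic terminals, had a log2 CPM of 3.45, 4.35 and 4.0 in controls against -0.91, -0.11 and -1.84 in OIR mice. Neither gene overlapped between groups, and their log2 fold changes were -5.27 ± 0.42 SE, adjusted p = 0.00484 and -5.0 ± 0.49 SE, adjusted p = 0.00678. Slc10a4, a vesicular carrier found in cholinergic and monoaminergic neurons, fell too (-3.68 ± 0.51 SE, adjusted p = 0.00927). Gm2990, annotated as antisense RNA at the 5′ end of Chat (chr14:32465042-32483548, plus strand), had 50, 31 and 25 counts in control mice and 0 in each OIR mouse, which is at least 11.4-fold lower against a floor of 3 counts per mouse. Reads of Chat and Gm2990 cannot be told apart where these genes overlap, since strandedness is not given in the sources used here. Reads of Chat and Slc18a3, which share a strand, could not be told apart by strandedness where they overlap. Other genes of starburst cells differed in direction, as the receptor gene Megf11 fell (-0.83 ± 0.14 SE, adjusted p = 0.0132) while Megf10, which Müller glia also express, rose (0.70 ± 0.12 SE, adjusted p = 0.0132), both genes chosen after their values were seen.

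**Figure D1:**
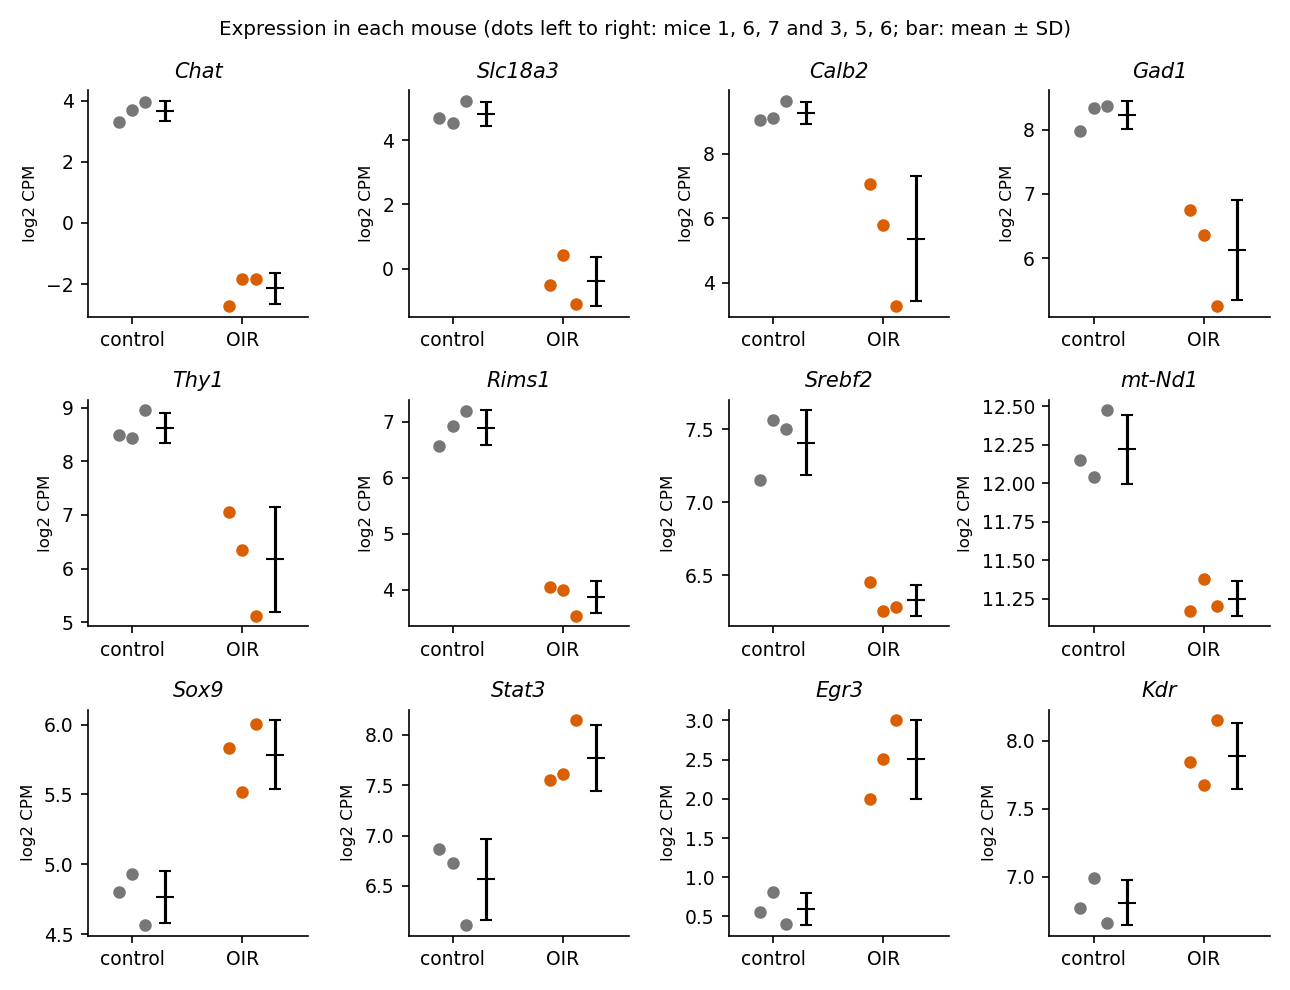
Log2 CPM (y axis) of 12 genes in each mouse, with control mice in gray and OIR mice in orange, and the mean ± SD of 3 mice beside each group. In all 12 genes the 3 OIR values lie apart from the 3 control values, as for Chat at 3.30 to 3.97 in control and -2.73 to -1.83 in OIR mice.

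Genes of other amacrine cells fell as well. The list of 25 amacrine cell genes, all of them tested, includes Chat, Slc18a3, and Slc5a7 above. Of the 25, 17 (68%, against 7.44% of all genes tested) fell and 0 rose. In 22, against 18.4% of all genes, every OIR value lay below the controls. The median log2 fold change was -1.48 against 0.01 over all genes tested. Gad1, an enzyme of GABA synthesis, was at 7.97, 8.34 and 8.37 in controls against 6.75, 6.36 and 5.25 in OIR mice, where OIR mouse 6 was lowest. The log2 fold change of Gad1 was -2.0 ± 0.34 SE, adjusted p = 0.014 and that of the vesicular carrier Slc32a1 was -1.48 ± 0.18 SE, adjusted p = 0.00836. The glycine transporter gene Slc6a9 (-1.02 ± 0.21) and Th (-1.98 ± 0.35), the rate-limiting enzyme of dopamine synthesis, fell as well. Calb2 (ENSMUSG00000003657, chr8:110137502-110168210), which encodes the calcium-binding protein calretinin, had a log2 CPM of 9.03, 9.10 and 9.63 in controls against 7.07, 5.78 and 3.27 in OIR mice, spread widely among OIR mice. Its log2 fold change was -3.24 ± 0.77 SE, adjusted p = 0.0359. Ppp1r17, a phosphatase inhibitor, was lower in every OIR mouse and fell (-3.09 ± 0.26 SE, adjusted p = 0.00541). Tfap2b, a transcription factor made by most amacrine cells, was lower in every OIR mouse but did not pass the test (-0.67 ± 0.23 SE, adjusted p = 0.106). The number of amacrine genes called lower was 6 without control mouse 6, 6 without control mouse 7, and 7 without OIR mouse 5, while the median stayed between -1.66 and -1.34 when any mouse was left out. In bulk tissue, fewer cells of a type and less RNA per cell cannot be told apart.

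All 19 RGC genes were lower in every OIR mouse than in any control mouse, against 18.4% of all genes tested. Of the 19, 12 (63.2%, against 7.44% of all genes) passed the test, with a median log2 fold change of -1.74. Nefh, the heavy neurofilament chain of large axons, had a log2 CPM of 7.67, 7.76 and 7.81 in controls against 6.77, 6.31 and 5.73 in OIR mice. The tubulin gene Tubb3 was at 8.19, 8.02 and 8.49 in controls against 7.28, 6.86 and 6.30 in OIR mice. Their log2 fold changes were -1.43 ± 0.23 SE, adjusted p = 0.0132 and -1.39 ± 0.24 SE, adjusted p = 0.015, and that of Rbpms2, an RNA-binding protein of RGCs, was -1.32 ± 0.23 SE, adjusted p = 0.0152. Thy1, a surface protein of RGCs chosen here after its values were seen, was at 8.49, 8.44 and 8.95 in controls against 7.06, 6.34 and 5.12 in OIR mice (-2.28 ± 0.43 SE, adjusted p = 0.0175). Pou4f1, the transcription factor BRN3A, was spread widely among OIR mice (5.68, 5.82 and 6.30 in controls against 4.58, 3.22 and 1.43 in OIR mice) and missed the threshold (-2.40 ± 0.63 SE, adjusted p = 0.0502), as did the vesicular glutamate transporter Slc17a6 (-1.89 ± 0.66 SE, adjusted p = 0.109). The mean over the list, taken relative to the control mean of each gene, was -1.0 in OIR mouse 3, -1.74 in OIR mouse 5, and -2.99 in OIR mouse 6, whereas control mice lay between -0.17 and 0.25. Of the 19 genes, 0 were called without control mouse 6, control mouse 7, or OIR mouse 5, and 18 were called without OIR mouse 3, with medians of -2.25 to -1.36 throughout. With all 9 mice in 1 fit, 0 of the 19 RGC genes and 1 of the 25 amacrine genes were called.

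**Figure D2:**
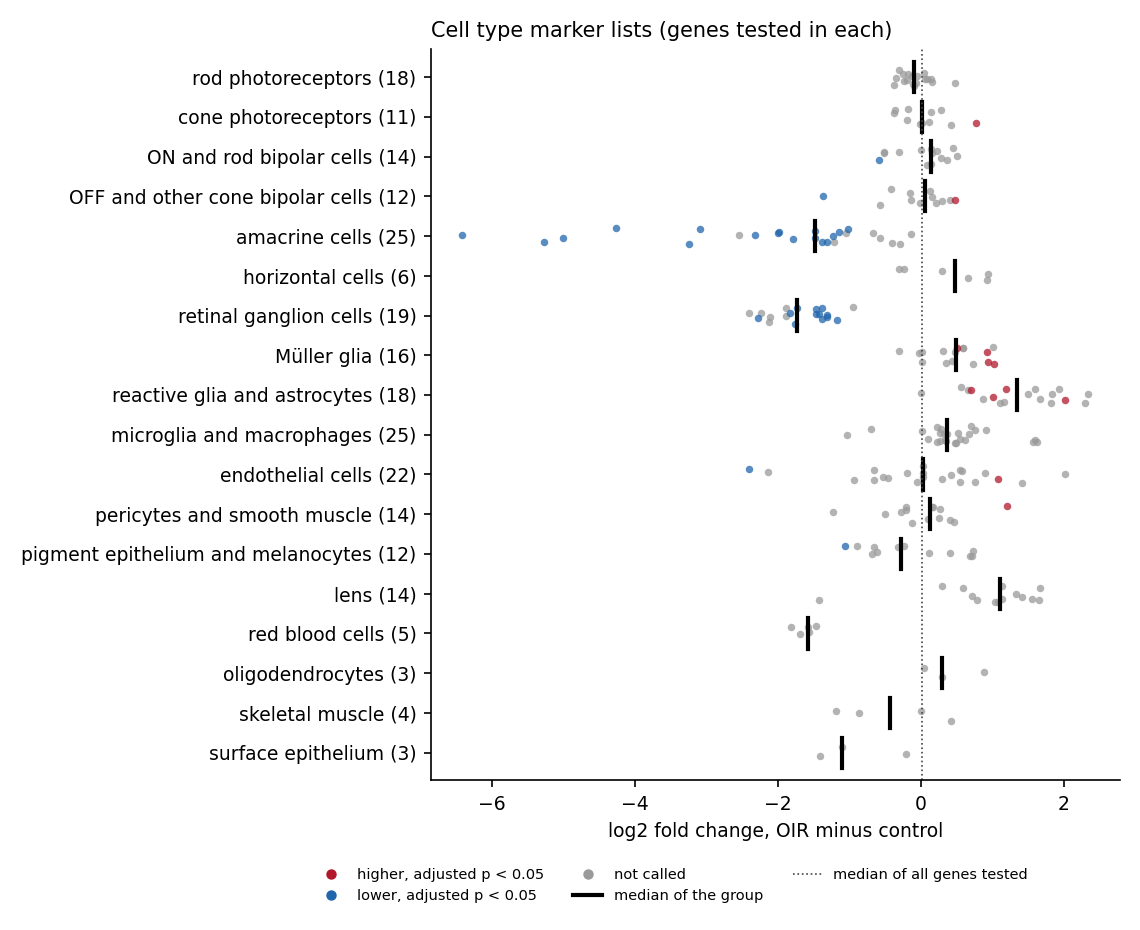
Log2 fold change of each gene tested (x axis, OIR minus control) in 18 cell type lists, with the number of genes tested in parentheses. Red and blue points passed the test, black bars are list medians, and the dotted line is the median of all genes, and amacrine (-1.48) and RGC genes (-1.74) lie to its left.

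The photoreceptor and bipolar cell lists each held at most 1 gene called in either direction, against 2.88% higher and 7.44% lower of all genes tested. In lists this short, such counts are near the share over all genes. Of 18 rod genes, 0 passed the edgeR test, 1 had an unadjusted p below 0.05, and 1 passed that of DESeq2, with a median of -0.10. Nr2e3, a transcription factor that maintains rod identity, came closest (0.47 ± 0.15 SE, adjusted p = 0.0848). Among 11 cone genes only Gnb3, a G protein subunit of cones and ON bipolar cells, rose (0.78 ± 0.19 SE, adjusted p = 0.0431), and the short-wavelength opsin Opn1sw was at -0.36 ± 0.20. Among 14 genes of ON and rod bipolar cells only Gng13 fell (-0.58 ± 0.09 SE, adjusted p = 0.0122), a G protein subunit of ON bipolar cells, while the glutamate receptor Grm6 and the channel Trpm1 were at 0.28 ± 0.12 and 0.44 ± 0.14, both without passing. Otx2, which photoreceptors and bipolar cells need, rose by a small and even amount (7.82, 7.77 and 7.87 in controls against 8.31, 8.30 and 8.28 in OIR mice), with a log2 fold change of 0.47 ± 0.09 SE, adjusted p = 0.0196. In the list of OFF and other cone bipolar cells, Fezf1, a transcription factor also found in starburst amacrine cells, fell (-1.37 ± 0.34 SE, adjusted p = 0.0413). Without control mouse 6 or control mouse 7, 0 genes of the cone and bipolar lists were called. In the list that holds Otx2 and Fezf1, 0 were also called without any of the OIR mice in turn or with sex as a covariate. Of 6 horizontal cell genes 0 were called by edgeR, 2 had an unadjusted p below 0.05, and 2 were called by DESeq2, and the gap junction gene Gja10 and the transcription factor Onecut2 were higher in every OIR mouse without passing the edgeR test (0.94 ± 0.28 SE, adjusted p = 0.0765 and 0.93 ± 0.31 SE, adjusted p = 0.0961).

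Several Müller glia genes rose. Of 16 genes, 4 (25%, against 2.88% of all genes tested) rose and 0 fell. In 7, against 14.6% of all genes, every OIR value lay above the controls, and the median log2 fold change was 0.49. Sox9, a transcription factor of Müller glia, had a log2 CPM of 4.80, 4.93 and 4.56 in controls against 5.83, 5.51 and 6.01 in OIR mice, and Slc1a3, the glutamate transporter GLAST, had 7.35, 7.5 and 7.25 in controls against 8.21, 8.02 and 8.63 in OIR mice. Both separated the groups, with log2 fold changes of 1.02 ± 0.15 SE, adjusted p = 0.012 and 0.93 ± 0.16 SE, adjusted p = 0.0152. Rdh10, a retinol dehydrogenase, and the carbonic anhydrase gene Car14 rose as well (0.92 ± 0.19 SE, adjusted p = 0.0227 and 0.50 ± 0.11 SE, adjusted p = 0.0252). Glul, the glutamine synthetase of Müller glia, and Rlbp1, their retinaldehyde-binding protein, were at 0.02 ± 0.16 and -0.30 ± 0.14 and did not pass. Without control mouse 6, 1 of the 16 genes was called and without control mouse 7, 2 were called, and the median stayed between 0.33 and 0.55.

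In the list of reactive glia, 4 of 18 genes (22.2%, against 2.88% of all genes tested) rose, and the median was 1.34. In 10, against 14.6% of all genes, every OIR value lay above the controls. Stat3, the transcription factor downstream of gp130 cytokines, had a log2 CPM of 6.86, 6.73 and 6.11 in controls against 7.55, 7.61 and 8.15 in OIR mice. The log2 fold change of Stat3 was 1.19 ± 0.23 SE, adjusted p = 0.0189, that of the gp130 gene Il6st was 0.70 ± 0.16 SE, adjusted p = 0.0304, that of the intermediate filament gene Nes was 1.01 ± 0.20 SE, adjusted p = 0.0194, and that of the acute-phase transcription factor Cebpd was 2.01 ± 0.45 SE, adjusted p = 0.0308. Gfap, the filament protein of reactive glia, was higher in every OIR mouse but varied widely among controls (7.81, 7.32 and 5.87 in controls against 7.88, 8.29 and 9.48 in OIR mice) and did not pass (1.5 ± 0.53 SE, adjusted p = 0.117). Edn2 and Lif, a peptide and a cytokine of injured retina, were at 1.92 ± 0.62 and 1.6 ± 0.72 without passing. The list mean ranged from -0.98 in control mouse 7 to 0.74 in control mouse 1, and from 0.64 to 2.25 in OIR mice. Between the 2 females it differed by -0.11 and between the males by 2.10. Of the 18 genes, 0 were called without control mouse 6 or control mouse 7, 1 without OIR mouse 5, and 7 each without control mouse 1 and without OIR mouse 3.

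Microglia, complement, interferon response, and cell cycle genes were spread widely among control mice. Of 25 microglia and macrophage genes 0 were called by edgeR, 2 were higher and 1 lower at an unadjusted p below 0.05, and DESeq2 called 1 higher and 1 lower. Their summed level was 1474 CPM in control mouse 1, 455 in control mouse 6, and 203 in control mouse 7, against 554, 897 and 1572 CPM in OIR mice 3, 5 and 6. The list mean was lower in OIR by 1.04 between the females and higher by 1.77 between the males. The homeostatic microglia genes Tmem119 and Cx3cr1 went in opposite directions without passing (-1.04 ± 0.29 SE, adjusted p = 0.0633 and 0.68 ± 0.23 SE, adjusted p = 0.105). Of 12 complement genes only Cfi, a regulator that cleaves C3b, rose (1.55 ± 0.37 SE, adjusted p = 0.0378), and 0 complement genes were called without control mouse 6, control mouse 7, OIR mouse 5, or OIR mouse 6. Of 22 interferon response and MHC class I genes and 25 cell cycle genes, 0 each were called by edgeR. At an unadjusted p below 0.05 these were 2 higher and 1 lower interferon genes and 0 cell cycle genes, and DESeq2 called 1 interferon gene higher and 0 cell cycle genes. Mki67, a marker of dividing cells, was at 3.47, 0.01 and -2.15 in controls against 1.80, 1.81 and 2.63 in OIR mice, with the highest value in control mouse 1. Without control mouse 1, 3 microglia genes, 3 interferon response genes, and 6 cell cycle genes were called higher. What sets control mouse 1 apart was not tested.

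**Figure D3:**
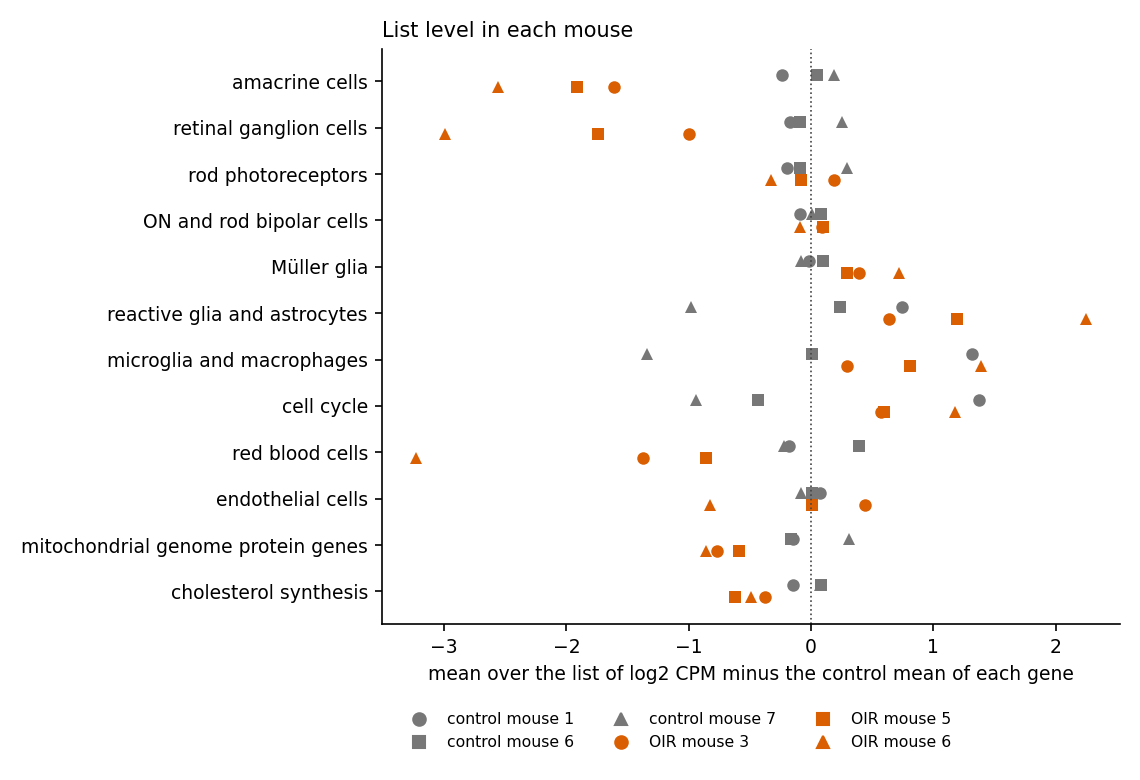
Level of 12 lists in each mouse (x axis, mean over the list of log2 CPM minus the control mean of each gene), with control mice in gray and OIR mice in orange. Amacrine (-2.56 to -1.61) and RGC lists (-2.99 to -1.0) lie below all controls in the 3 OIR mice, whereas microglia and cell cycle lists overlap, with control mouse 1 at 1.32 and 1.37.

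Vascular genes did not move as 1 class. Of 22 endothelial genes 1 rose and 1 fell, 4.5% each against 2.88% and 7.44% of all genes tested. Kdr, the main VEGF receptor, rose (1.08 ± 0.15 SE, adjusted p = 0.00927) from values of 6.77, 6.99 and 6.66 in controls against 7.84, 7.67 and 8.15 in OIR mice. Ly6c1, a surface protein of mature endothelium, fell (-2.40 ± 0.43 SE, adjusted p = 0.0153), with 4.40, 4.67 and 5.05 in controls against 3.04, 2.31 and 1.16 in OIR mice, and the organic anion carrier Slco1a4 of the blood-retina barrier was lower in every OIR mouse without passing (-2.14 ± 0.61 SE, adjusted p = 0.0643). The junction genes Cdh5 and Cldn5 were at 0.42 ± 0.38 and -0.19 ± 0.46 and spanned both sides of the controls. Over the list the level was 0.44 in OIR mouse 3 and -0.83 in OIR mouse 6. No endothelial gene was called lower without control mouse 6, control mouse 7, or OIR mouse 5. Among 14 genes of pericytes and smooth muscle, only Mcam (7.1%, against 2.88% of all genes), an adhesion molecule of mural and endothelial cells, rose (1.20 ± 0.30 SE, adjusted p = 0.0438), and Pdgfrb was at 0.16 ± 0.19. Of these 14, 0 were called without control mouse 6, control mouse 7, OIR mouse 3, or OIR mouse 5, or with the robust fit. The 5 red blood cell genes tested were all lower in every OIR mouse (against 18.4% of all genes), from -1.81 to -1.46. Of these, 0 were called by edgeR, 5 had an unadjusted p below 0.05, and 3 were called lower by DESeq2. Their summed level was 77.6 to 136 CPM in control mice and 9.63 to 57.7 CPM in OIR mice. In the pigment epithelium list of 12 genes only Rgr (8.3%, against 7.44% of all genes), an opsin of pigment epithelium and Müller glia, fell (-1.06 ± 0.25 SE, adjusted p = 0.0354), and Rpe65 was at -0.62 ± 0.36. That list held 2 lower calls without OIR mouse 3 and 0 calls without any 1 of the other mice. Of 14 lens genes 0 were called by edgeR or DESeq2 and 0 had an unadjusted p below 0.05.

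Genes of synaptic transmission and excitability fell widely. Rims1 (ENSMUSG00000041670, chr1:22286251-22805994), a scaffold of the presynaptic active zone, had a log2 CPM of 6.56, 6.93 and 7.19 in controls against 4.05, 4.0 and 3.53 in OIR mice, with no overlap between the groups. Its log2 fold change was -3.05 ± 0.20 SE, adjusted p = 0.00308. Of 22 genes of the vesicle release machinery 8 (36.4%, against 7.44% of all genes tested) fell and 0 rose. The falls included Syn1 and Cplx2 (-1.45 ± 0.24 SE, adjusted p = 0.0133 and -1.48 ± 0.28 SE, adjusted p = 0.0171), which bind vesicles and SNARE complexes. Sv2a, a synaptic vesicle protein, fell too (-1.03 ± 0.18 SE, adjusted p = 0.0149), whereas Snap25, Syp, and Syt1, which photoreceptors also express, were at -0.59 ± 0.18, -0.35 ± 0.14 and -0.33 ± 0.14 and did not pass.

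Receptor genes for inhibitory and excitatory transmitters fell. Of 22 GABA and glycine receptor genes 12 (54.5%, against 7.44% of all genes tested) fell and 0 rose, with a median of -1.05. Gabrd, the subunit of extrasynaptic GABA receptors, was at 4.64, 4.55 and 4.87 in controls against 2.30, 2.01 and 1.48 in OIR mice (-2.77 ± 0.24 SE, adjusted p = 0.00586). The glycine receptor subunit gene Glrb fell by less (-0.92 ± 0.14 SE, adjusted p = 0.0126). Of 26 glutamate receptor genes 13 (50%) fell and 0 rose, with a median of -0.94. Grin2b and Grm4, an NMDA and a metabotropic receptor, fell most clearly by their p-values (-1.47 ± 0.18 SE, adjusted p = 0.008 and -1.96 ± 0.26 SE, adjusted p = 0.00911). Of 14 acetylcholine receptor genes 5 (35.7%) fell and 2 (14.3%, against 2.88% of all genes tested) rose. The subunit genes Chrnb3 and Chrna6, which RGCs express, fell (-1.58 ± 0.27 SE, adjusted p = 0.0148 and -1.47 ± 0.24 SE, adjusted p = 0.0133), and the subunit genes Chrnb4 and Chrnb1 rose (1.22 ± 0.29 SE, adjusted p = 0.036 and 0.78 ± 0.20 SE, adjusted p = 0.0431), of which Chrnb1 belongs to the receptor of muscle.

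Channel and neuropeptide genes also fell. Of 76 potassium channel genes 26 (34.2%) fell and 1 (1.3%) rose, against 7.44% and 2.88% of all genes tested. The axonal channel gene Kcna2 fell (-1.56 ± 0.19 SE, adjusted p = 0.008) with the 2-pore channel gene Kcnk12 (-2.73 ± 0.33 SE, adjusted p = 0.008). Of 36 sodium and calcium channel genes 19 (52.8%) fell and 0 rose, with a median of -0.94. The calcium channel subunit gene Cacnb3 was at 6.46, 6.56 and 6.91 in controls against 5.35, 5.13 and 4.80 in OIR mice (-1.55 ± 0.17 SE, adjusted p = 0.008). Of 14 neuropeptide genes 6 (42.9%) fell and 0 rose. Vip, a peptide of amacrine cells, had a log2 CPM of 3.31, 3.62 and 3.43 in controls against 0.50, -1.42 and -2.42 in OIR mice, so that OIR mice 5 and 6 were at the level of few reads, and its log2 fold change was -4.32 ± 0.70 SE, adjusted p = 0.013. Cartpt, a peptide of RGCs and amacrine cells, and Npy fell by less (-1.49 ± 0.19 SE, adjusted p = 0.00898 and -1.38 ± 0.23 SE, adjusted p = 0.0132), and Sst, of another amacrine type, was at 0.59 ± 0.33 with overlapping groups. Crhr1, the receptor for corticotropin-releasing hormone, and Pappa2, a protease that cleaves IGF-binding proteins, were among the 10 largest falls by the rule used to name genes (-3.01 ± 0.63 SE, adjusted p = 0.024 and -3.15 ± 0.41 SE, adjusted p = 0.00898). Without control mouse 6, control mouse 7, and OIR mouse 5 in turn, the number called lower was 1, 1 and 1 for the release machinery, 1, 1 and 1 for GABA and glycine receptors, 3, 3 and 4 for glutamate receptors, 4, 6 and 8 for potassium channels, 1, 1 and 5 for sodium and calcium channels, 2, 2 and 1 for neuropeptides, and 0 each for acetylcholine receptors.

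**Figure D4:**
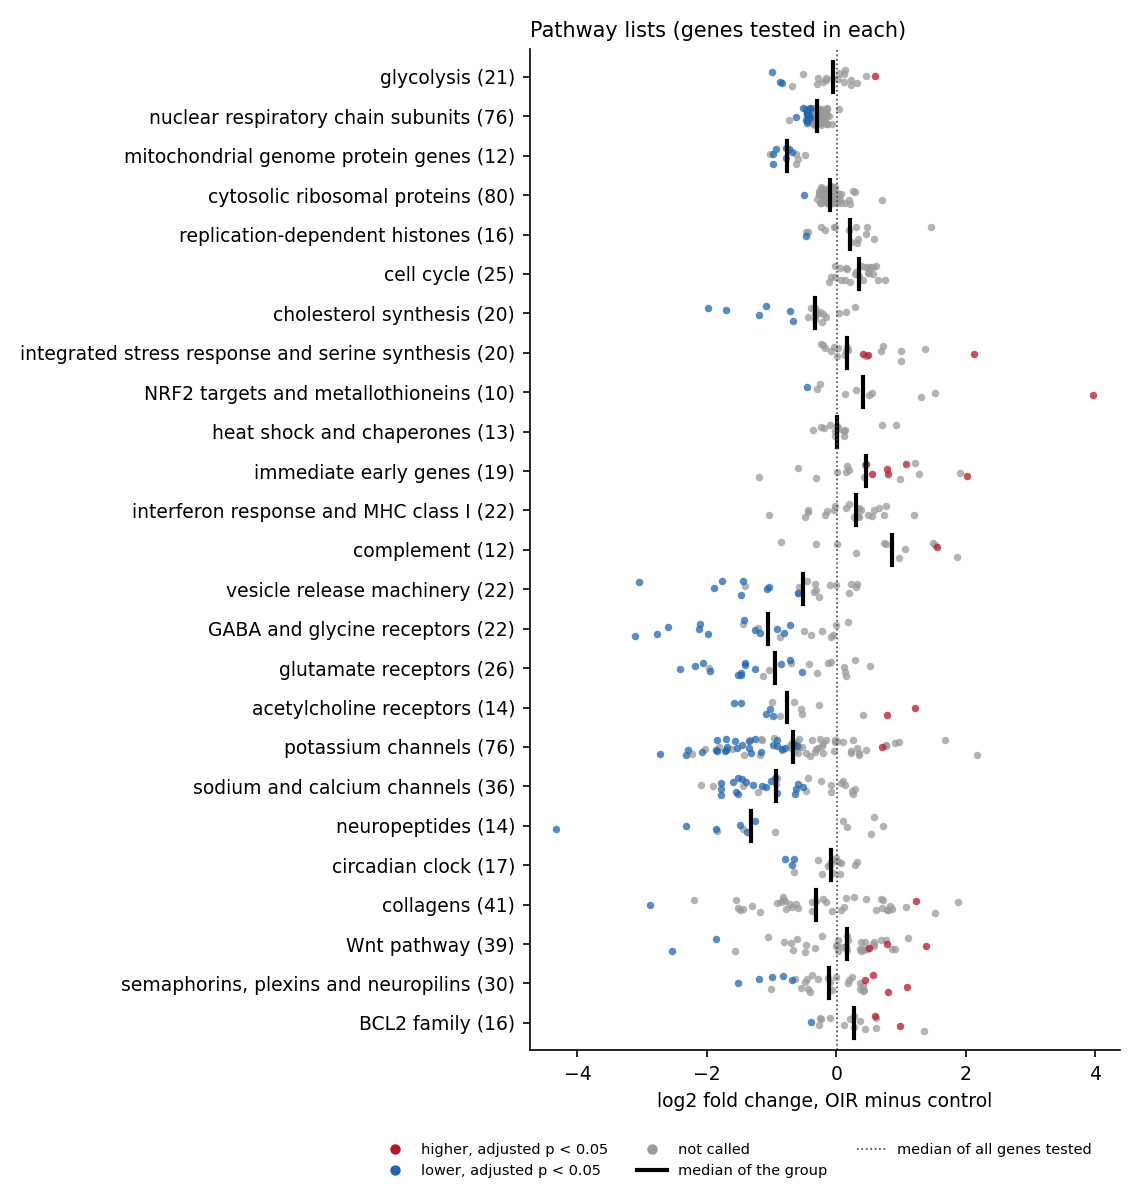
Log2 fold change of each gene tested (x axis, OIR minus control) in 25 pathway lists, with the number of genes tested in parentheses. Red and blue points passed the test and black bars are medians, which lie furthest to the left for neuropeptides (-1.32) and GABA and glycine receptors (-1.05).

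Transcripts of the mitochondrial genome were lower in OIR mice. All 12 protein-coding mitochondrial genes tested had a negative log2 fold change, with a median of -0.76, and 7 (58.3%, against 7.44% of all genes tested) fell. In 11, against 18.4% of all genes, every OIR value lay below the controls. The complex I subunit gene mt-Nd1 (chrMT:2751-3707) had a log2 CPM of 12.15, 12.04 and 12.47 in controls against 11.17, 11.38 and 11.20 in OIR mice, and its log2 fold change was -0.99 ± 0.16 SE, adjusted p = 0.0128. The mitochondrial ribosomal RNA genes mt-Rnr1 and mt-Rnr2, chosen after their values were seen, fell by more (-1.30 ± 0.13 SE, adjusted p = 0.00762 and -1.20 ± 0.15 SE, adjusted p = 0.00887), and 2 of 12 mitochondrial tRNA genes fell. Gm28661, annotated as an unprocessed pseudogene, fell by a like amount (-0.95 ± 0.12 SE, adjusted p = 0.00836), and reads of a nuclear copy and of the mitochondrial genome may not have been told apart in counting. The respiratory chain subunits encoded in the nucleus shifted in the same direction by less. Of 76 genes 13 (17.1%, against 7.44% of all genes) fell and 0 rose. A negative log2 fold change was seen in 75, and 40 (against 18.4% of all genes) lay below the controls in every OIR mouse, with a median of -0.30. Ndufb6, a complex I subunit, was at 5.55, 5.53 and 5.62 in controls against 4.96, 4.84 and 5.06 in OIR mice (-0.62 ± 0.10 SE, adjusted p = 0.014), and Atp5d, a subunit of ATP synthase, at -0.47 ± 0.10. Of these 76 genes, 0 to 4 were called when any mouse was left out and the median stayed between -0.36 and -0.21, and of the 12 mitochondrial genes 1 to 5 were called. Ribosomal protein genes had a median of -0.09, and 1 of 80 passed.

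Of 21 glycolysis genes 1 (4.8%) rose and 3 (14.3%) fell, against 2.88% and 7.44% of all genes tested. Pfkfb3, which makes the activator of phosphofructokinase, rose (0.59 ± 0.12 SE, adjusted p = 0.0211), while Pfkm, Aldoc, and Eno2, isoforms that neurons or glia express, fell (-0.99 ± 0.15 SE, adjusted p = 0.0108, -0.84 ± 0.12 SE, adjusted p = 0.0112 and -0.87 ± 0.16 SE, adjusted p = 0.018). The hexokinases Hk1 and Hk2 were at 0.32 ± 0.14 and -0.30 ± 0.12 and did not pass. Without control mouse 6 or OIR mouse 5, 0 of the 21 genes were called, and without control mouse 7 or OIR mouse 6 only 2, both lower.

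Cholesterol synthesis genes were decreased at several steps. Of 20 genes 6 (30%, against 7.44% of all genes tested) fell and 0 rose, and the median was -0.32. Srebf2, the transcription factor that drives this pathway, was at 7.15, 7.56 and 7.5 in controls against 6.45, 6.25 and 6.28 in OIR mice (-1.09 ± 0.13 SE, adjusted p = 0.008), and Insig1, of the same list, fell as well (-1.19 ± 0.20 SE, adjusted p = 0.0145). The synthesis enzyme genes Fdft1 and Hmgcs1 fell too (-0.72 ± 0.12 SE, adjusted p = 0.0135 and -0.67 ± 0.13 SE, adjusted p = 0.02). Srebf1, a related factor that drives fatty acid synthesis and was chosen after its values were seen, rose (0.61 ± 0.11 SE, adjusted p = 0.0155). Of the 20 genes, 2 were called without control mouse 6, 3 without control mouse 7, and 2 without OIR mouse 5.

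Among stress response genes, heme oxygenase and immediate early genes rose. Hmox1 (ENSMUSG00000005413, chr8:75093621-75100589), which degrades heme, had the largest rise among called genes, with a log2 CPM of 4.58, 3.54 and 2.21 in controls against 4.80, 7.01 and 8.90 in OIR mice. Its values were spread widely in both groups without overlap, and its log2 fold change was 3.96 ± 1.0 SE, adjusted p = 0.0444. The call of Hmox1 was lost without control mouse 6, control mouse 7, OIR mouse 5, or OIR mouse 6, and also with total counts alone, the robust fit, sex as a covariate, limma, or all 9 mice. Of the other NRF2 and metallothionein genes Srxn1, a sulfiredoxin, fell (-0.45 ± 0.09 SE, adjusted p = 0.0234), and Mt1 and Nqo1 were at 1.53 ± 0.47 and -0.30 ± 0.25. Of 19 immediate early genes 6 (31.6%, against 2.88% of all genes tested) rose and 0 fell, with a median of 0.45. Egr3, a zinc finger factor induced by activity and growth factors, was at 0.56, 0.82 and 0.41 in controls against 1.99, 2.51 and 3.01 in OIR mice, with a log2 fold change of 2.02 ± 0.35 SE, adjusted p = 0.0146. Btg2, an antiproliferative gene, was nearly identical within each group at 6.91, 6.86 and 6.88 in controls against 7.44, 7.38 and 7.5 in OIR mice (0.55 ± 0.09 SE, adjusted p = 0.0128), and Fos and Nr4a1 rose too (0.78 ± 0.17 SE, adjusted p = 0.0271 and 0.45 ± 0.11 SE, adjusted p = 0.0391). Egr1 and Jun were at 0.98 ± 0.27 and 0.45 ± 0.17 without passing. Of the genes of the integrated stress response and serine synthesis, 3 of 20 (15%) rose, namely Shmt2, Slc7a5, and Nupr1 (0.48 ± 0.11 SE, adjusted p = 0.0299, 0.42 ± 0.10 SE, adjusted p = 0.0413 and 2.13 ± 0.55 SE, adjusted p = 0.0459), while Atf4, their shared regulator, was at 0.14 ± 0.10 and Ddit3 at -0.04 ± 0.13. Of these 20 genes, 1 was called without control mouse 1, 2 without OIR mouse 3, and 0 without any 1 of the other 4 mice, with sex as a covariate, or with all 9 mice. Of 13 heat shock genes 0 were called by edgeR, 2 were higher and 1 lower at an unadjusted p below 0.05, and 2 were called higher by DESeq2, with Hspa1a at -0.10 ± 0.11. No immediate early gene was called without control mouse 6 or control mouse 7, while 2 were called without OIR mouse 5 and 3 without OIR mouse 6.

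Egln3, Apln, Adm, Fgf2, Cdh23, and Slc6a2 were among the 10 largest rises. The oxygen sensor Egln3 had a log2 CPM of 3.08, 3.13 and 2.69 in controls against 4.64, 4.19 and 6.38 in OIR mice and a log2 fold change of 2.42 ± 0.54 SE, adjusted p = 0.0299, and the peptide genes Apln and Adm had log2 fold changes of 2.89 ± 0.38 and 2.81 ± 0.37. Fgf2 (ENSMUSG00000037225, chr3:37348346-37410108), a growth factor for neurons and vessels, had a log2 CPM of 6.33, 5.82 and 4.54 in controls against 8.05, 7.87 and 8.53 in OIR mice and a log2 fold change of 2.43 ± 0.41 SE, adjusted p = 0.0138. The antisense gene Fgf2os and Gm43488, which lies within the span of Fgf2os, rose too (2.52 ± 0.51 SE, adjusted p = 0.0218 and 2.66 ± 0.65 SE, adjusted p = 0.0399), and Fgf2os overlaps Fgf2, so reads of this locus may be shared. Cdh23 (ENSMUSG00000012819, chr10:60302748-60696490), a cadherin of photoreceptors and hair cells, was at 0.79, 0.59 and -1.25 in controls against 2.76, 3.07 and 3.02 in OIR mice and did not overlap (2.72 ± 0.48 SE, adjusted p = 0.0154). Slc6a2 (ENSMUSG00000055368, chr8:92960079-93001667), the noradrenaline transporter, was at 3.09, 2.38 and 2.10 in controls against 4.30, 4.83 and 5.58 in OIR mice and rose by 2.41 ± 0.38 SE, adjusted p = 0.0126. Gm12802, an antisense RNA on chromosome 4, rose by 2.50 ± 0.34 SE, adjusted p = 0.00927. Ndufa4l2, a hypoxia-inducible subunit-like protein of the respiratory chain chosen after its values were seen, rose (2.11 ± 0.17 SE, adjusted p = 0.00484). It overlaps Shmt2, so reads of the 2 genes may be shared.

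Of 1069 genes with a transcription factor family in the file, 64 (6.0%) rose and 59 (5.5%) fell, against 2.88% and 7.44% of all genes tested. In every OIR mouse 290 (against 14.6% of all genes) were higher and 132 (against 18.4%) lower, with a median of 0.14. C2H2 zinc finger genes accounted for 143 of the 290, with 22 (4.7%) of 469 called higher and 12 (2.6%) lower and a median of 0.16. Of 44 ZBTB genes, 14 were higher in every OIR mouse. Of the 44, 4 (9.1%) rose, among them Zbtb34 and Zbtb20 (0.75 ± 0.14 SE, adjusted p = 0.0185 and 0.54 ± 0.11 SE, adjusted p = 0.0221). Insm1, a zinc finger factor of developing neurons, was at 5.87, 6.0 and 6.29 in controls against 7.09, 6.77 and 6.88 in OIR mice (0.85 ± 0.14 SE, adjusted p = 0.013), and Zfp467 fell (-0.84 ± 0.11 SE, adjusted p = 0.0087). Zinc finger factors that fell, chosen after their values were seen, included Prdm13 (-2.83 ± 0.50), which specifies amacrine cells, and Bcl11b and Bcl11a (-1.70 ± 0.40 and -1.68 ± 0.36), both made by inner retinal neurons. Of the zinc finger genes, 9 were called higher without control mouse 1 or OIR mouse 3, 8 without OIR mouse 6, and 1 each without control mouse 6, control mouse 7, or OIR mouse 5. Of the ZBTB genes, 0 were called without OIR mouse 5, 2 without OIR mouse 6, and 1 each without control mouse 1, control mouse 6, or control mouse 7.

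All 5 AP-2 genes tested were lower in every OIR mouse, against 18.4% of all genes tested, with a median of -1.29, and 3 of the 5 are in the amacrine list above. Of the 5, 2 passed. Of 10 Pou genes 3 (30%, against 7.44% of all genes tested) fell, with a median of -1.65. Pou3f1 had a log2 CPM of 2.88, 2.50 and 2.31 in controls against 0.38, -1.42 and -0.12 in OIR mice and a log2 fold change of -2.96 ± 0.49 SE, adjusted p = 0.0135. Pou2f1, made by most cells, was at 0.27 ± 0.12. Of 72 homeobox genes 9 (12.5%) fell and 0 rose. The falls included Meis3 and Hmx1 (-0.79 ± 0.11 SE, adjusted p = 0.0104 and -0.68 ± 0.09 SE, adjusted p = 0.00924), and 1 of the 9, Cers5 (-0.44 ± 0.09), is a ceramide synthase that carries a homeobox-like domain. Of 63 bHLH genes 7 (11.1%) rose and 6 (9.5%) fell, against 2.88% and 7.44% of all genes tested. The aryl hydrocarbon receptor Ahr was at 5.68, 5.68 and 5.37 in controls against 6.58, 6.39 and 6.85 in OIR mice and rose (1.03 ± 0.14 SE, adjusted p = 0.00927), and its repressor Ahrr, chosen after its values were seen, rose as well (1.01 ± 0.20 SE, adjusted p = 0.0193). Of 43 bZIP genes 7 (16.3%) rose and 6 (14.0%) fell, and the falls included Mafa (-3.17 ± 0.38 SE, adjusted p = 0.008), a factor of a subset of amacrine cells, and Jdp2 (-0.77 ± 0.13 SE, adjusted p = 0.0134). The thyroid hormone receptor Thra and the forkhead factor Foxo1 moved in opposite directions (-0.80 ± 0.14 SE, adjusted p = 0.0157 and 0.61 ± 0.12 SE, adjusted p = 0.0202). Without control mouse 6, control mouse 7, and OIR mouse 5 in turn, 2, 1 and 2 homeobox genes, 0, 1 and 1 Pou genes, and 0, 0 and 1 AP-2 genes were called lower. In the same fits 1 bHLH gene was called higher and 2 lower each time, and 0, 0 and 2 bZIP genes were called higher and 1 lower each time. Without OIR mouse 6, 4 homeobox genes were called lower, 4 bHLH genes higher and 3 lower, and 2 bZIP genes higher and 3 lower. With all 9 mice 1 homeobox gene and 0 Pou and AP-2 genes were called.

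**Figure D5:**
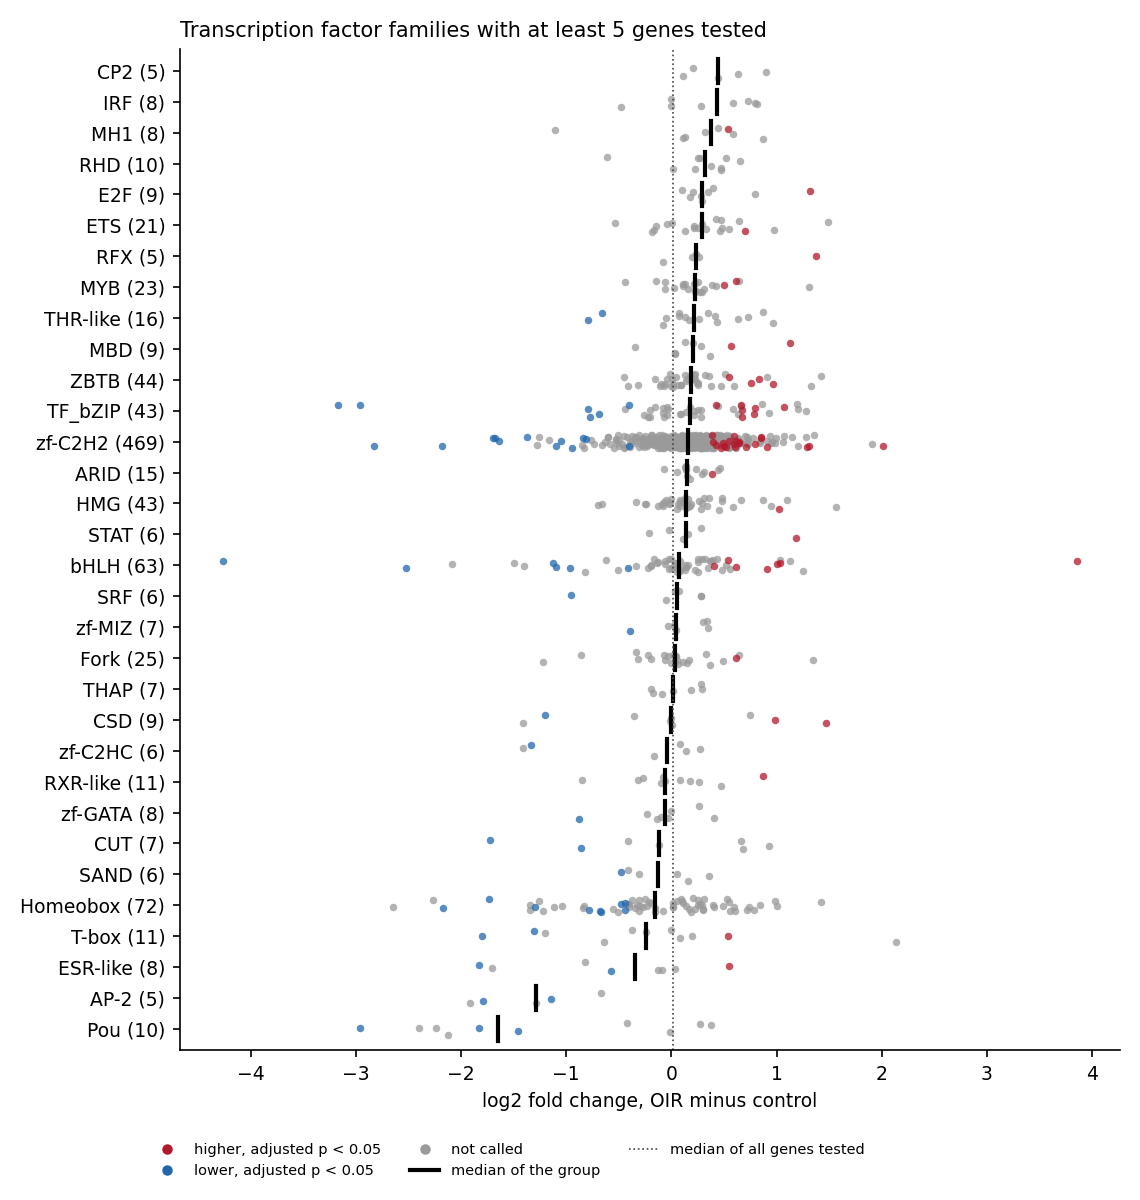
Log2 fold change of each gene tested (x axis, OIR minus control) in 32 transcription factor families, ordered by median, with the number of genes tested in parentheses. Most family medians lie to the right of the dotted median of all genes (0.01), and those of AP-2 (-1.29) and Pou genes (-1.65) lie furthest to the left.

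By gene class, 469 (3.2%) of 14617 protein-coding genes rose and 1242 (8.5%) fell, against 2.88% and 7.44% of all genes tested. Of 541 lincRNA genes 9 (1.7%) rose and 12 (2.2%) fell, and of 498 antisense genes 5 (1.0%) rose and 3 (0.6%) fell. Of 586 processed pseudogenes 2 (0.3%) rose and 0 fell. The lincRNA A930001A20Rik was at 2.14, 2.12 and 2.63 in controls against -0.91, -1.61 and -3.38 in OIR mice, close to the level of a few reads in OIR mice, and fell (-4.47 ± 0.74 SE, adjusted p = 0.0134). Gm48236, another lincRNA, rose (1.5 ± 0.24 SE, adjusted p = 0.0126), as did the antisense gene Gm26954 (0.92 ± 0.12 SE, adjusted p = 0.00887). The share of counts in protein-coding genes was 97.9 to 98.3% in all 6 mice. Median gene length among protein-coding genes, as the file gives it, was 5922 bases for called higher genes, 4243 for called lower genes, and 4416 for all tested.

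Short sequence motifs near the start sites were counted in called genes and in all genes tested. RefSeq promoter windows (GRCm38.p6) were matched by symbol for 12126 of the genes tested, and the 250 bases before the start site nearest the gene's 5′ end were searched on both strands. ACGTG, the core of the hypoxia response element, was found in 21.3% of 376 windows of called higher genes, 19.2% of 953 windows of called lower genes, and 21.0% of all. CACCCCAC, a core of sterol response elements, was found in 2.66%, 2.94% and 2.65%, and the cyclic AMP response element TGACGTCA in 2.39%, 3.36% and 2.62% of the same sets. TGACGTCA holds ACGT but no full ACGTG. A match is a description of the letters and not of a bound site. The 4 windows below belong to called genes described above and hold 1 match each, in capitals, written 5′ to 3′ on the strand of the gene.
Egln3 (chr12:54203875-54204124, minus strand): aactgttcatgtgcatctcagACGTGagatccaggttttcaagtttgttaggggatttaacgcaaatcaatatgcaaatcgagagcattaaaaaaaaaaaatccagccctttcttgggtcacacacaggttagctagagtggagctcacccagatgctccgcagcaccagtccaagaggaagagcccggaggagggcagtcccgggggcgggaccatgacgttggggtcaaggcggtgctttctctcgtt
Pfkfb3 (chr2:11553930-11554179, minus strand): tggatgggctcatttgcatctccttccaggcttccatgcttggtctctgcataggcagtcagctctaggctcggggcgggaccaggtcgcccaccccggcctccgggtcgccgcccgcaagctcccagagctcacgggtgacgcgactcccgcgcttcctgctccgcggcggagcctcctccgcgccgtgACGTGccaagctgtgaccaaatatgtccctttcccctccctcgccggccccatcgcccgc
Hmgcs1 (chr13:119690101-119690350, plus strand): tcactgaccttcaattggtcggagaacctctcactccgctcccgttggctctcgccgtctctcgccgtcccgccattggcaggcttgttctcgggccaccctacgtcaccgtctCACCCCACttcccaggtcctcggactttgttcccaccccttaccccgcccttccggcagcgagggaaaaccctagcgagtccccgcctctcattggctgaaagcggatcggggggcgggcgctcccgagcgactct
Btg2 (chr1:134079156-134079405, minus strand): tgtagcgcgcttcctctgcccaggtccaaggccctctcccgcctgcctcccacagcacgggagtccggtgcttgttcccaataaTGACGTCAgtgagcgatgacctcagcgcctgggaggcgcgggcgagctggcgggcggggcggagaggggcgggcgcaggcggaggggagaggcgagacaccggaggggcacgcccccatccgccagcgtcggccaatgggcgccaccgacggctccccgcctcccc

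Counted from the start site, the match begins at -229 in the Egln3 window, at -60 in Pfkfb3, at -136 in Hmgcs1, and at -166 in Btg2. Egln3, Pfkfb3, and Btg2 rose and Hmgcs1 fell (2.42, 0.59, 0.55 and -0.67 on the log2 scale). Of 14 cholesterol synthesis genes with a window, only Hmgcs1 held CACCCCAC, and ACGTG was also found before Pfkm and Insig1, which fell, and of 15 immediate early genes only Btg2 held TGACGTCA.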

How the data were processed

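Retinal RNA of 9 mice at P17 was sequenced by the authors, and 6 mice were used here, 3 of each group by their labels. The authors deposited raw, whole-number counts for each gene, not normalized. CASAVA and HISAT are named in the submitters' processing notes without versions, while strandedness, annotation, any filter, and how reads were counted are not given in the sources used here. Coordinates are those of the file, on GRCm38.

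Counts of control and OIR mice alone were fitted with edgeR 4.0.16 in R 4.3.3 (TMM, filterByExpr by group, 1 mean per group, two-sided quasi-likelihood test, Benjamini-Hochberg adjustment over 17166 genes), and genes with an adjusted p below 0.05 were called. Log2 CPM used a prior count of 2, and SE is that of the log2 fold change. Depth was 16864135 to 27213184 counts per mouse, and the precision was set by the spread among 3 mice. Lists were described by counts and medians, without a test. Named genes were the 10 largest rises and falls among called genes that did not overlap and had a mean log2 CPM of at least 1, the first 3 and the 4 of smallest p in each list, the 2 of smallest p in each transcription factor family of at least 10 tested genes, and the 3 of smallest p in each noncoding class. Ahrr, Bcl11a, Bcl11b, Cers5, Chrnb1, Chrnb4, Cplx2, Gad1, Megf10, Megf11, Ndufa4l2, Plxna2, Pou2f1, Prdm13, Sema5b, Slc32a1, Srebf1, Tgfb3, Th, Thy1, Wnt11, mt-Rnr1, and mt-Rnr2 fall outside this rule and were chosen after their values were seen. The lists and the comparison were chosen with earlier results of these data known. Some genes are not reported here. The fit was tested on simulated data.

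Alternatives were all 9 mice in 1 fit, DESeq2 1.42.0, limma 3.58.1 (voom with sample quality weights), other scaling and filters, a robust fit, sex as a covariate (Xist log2 CPM above 5 taken as female), an absolute log2 fold change above 1, and leaving out each mouse. Figures were made with matplotlib.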

Additional observations from a re-analysis of the deposited data

Results flagged for a closer look

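The summed level of the lens gene list was 110000 CPM, scaled over all 9 mice, in treated OIR mouse 2, a sample outside the comparison above, against at most 293 CPM in any control mouse, a signal in data that the comparison did not use.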

How the results depend on the processing

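The 494 genes called higher and 1277 called lower became 76 and 89 with all 9 mice in 1 fit, 137 and 634 with an absolute log2 fold change above 1 added, 245 and 861 with sex as a covariate, and 908 and 1656 with DESeq2 under its own filter. When 1 mouse was left out, they ranged from 45 to 509 higher and from 175 to 1181 lower, with the fewest without control mouse 7 or 6. The added fold limit can only remove calls. Why the counts changed in the other fits, and why they depended on which mouse was left out, was not tested. Upper-quartile scaling, total counts alone, DESeq2's size factors, leaving out the filter on low counts, requiring 10 counts per mouse, the robust fit, and limma kept both counts within 1.5 times. With total counts alone 39.3% of calls were higher, against 27.9%, and the median of all genes was 0.10 against 0.01. Every called gene that had a value under an alternative kept its sign there, which was nearly fixed in advance because no called gene overlapped between groups. Of 126 called genes named here, 12 were called under every alternative. Of 1200 list medians under alternatives, 52 moved by more than 1 SD between mice. No paired analysis was possible because the labels record no pairs of mice. Depth limits the lowest genes, such as Chat and Vip in OIR mice.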

Other observations

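Of 30 semaphorin, plexin, and neuropilin genes 4 (13.3%) rose and 5 (16.7%) fell, against 2.88% and 7.44% of all genes tested. Sema6b, a transmembrane semaphorin, had a log2 CPM of 6.04, 6.12 and 6.23 in controls against 4.89, 4.65 and 4.23 in OIR mice and fell (-1.52 ± 0.17 SE, adjusted p = 0.008), as did Plxna1 (-0.82 ± 0.12 SE, adjusted p = 0.0121), whereas Sema5b and Plxna2 rose (0.80 ± 0.17 SE, adjusted p = 0.0276 and 0.45 ± 0.10 SE, adjusted p = 0.0271). Semaphorin and plexin calls were 0 higher and 1 lower without control mouse 7 or OIR mouse 5, 1 and 1 without control mouse 6, 0 and 2 without OIR mouse 6, 2 and 3 without control mouse 1, and 2 and 6 without OIR mouse 3. Of 41 collagen genes 1 rose and 1 fell, 2.4% each against 2.88% and 7.44% of all genes tested. Col2a1, the fibrillar collagen of cartilage and vitreous, was at 6.09, 6.47 and 5.79 in controls against 7.33, 7.43 and 7.37 in OIR mice and rose (1.23 ± 0.16 SE, adjusted p = 0.00911), and Col25a1, a transmembrane collagen of neurons, fell (-2.88 ± 0.25 SE, adjusted p = 0.00586). Of 39 Wnt pathway genes 3 (7.7%) rose, namely Wnt5b, Apcdd1, and Lrp6, and 2 (5.1%) fell, namely Wnt2b and Wnt11. Their log2 fold changes were 1.38 ± 0.29, 0.78 ± 0.17, 0.51 ± 0.09, -1.86 ± 0.30 and -2.54 ± 0.57. The Wnt calls were 0 without control mouse 7, 1 higher without control mouse 6, 1 lower without OIR mouse 5, and 2 higher and 1 lower without OIR mouse 6. Of 16 BCL2 family genes, 2 (12.5%) rose and 1 (6.2%) fell. The proapoptotic Bcl2l11 (BIM) and the prosurvival Mcl1 rose (0.98 ± 0.17 SE, adjusted p = 0.0144 and 0.60 ± 0.11 SE, adjusted p = 0.016) and the prosurvival Bcl2l1 fell (-0.40 ± 0.10 SE, adjusted p = 0.0458). Of the 16, 0 were called without control mouse 6 or control mouse 7.

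Of 17 circadian clock genes 3 (17.6%, against 7.44% of all genes tested) fell, namely Dbp, Hlf, and Nr1d1 (-0.69 ± 0.12 SE, adjusted p = 0.0147, -0.79 ± 0.14 SE, adjusted p = 0.0157 and -0.66 ± 0.14 SE, adjusted p = 0.0233). Arntl was higher in every OIR mouse without passing (0.29 ± 0.08 SE, adjusted p = 0.0616). Of the 17 genes, 0 were called without control mouse 6, control mouse 7, or OIR mouse 5 or with all 9 mice, and 1 without OIR mouse 6. The hour at which retinas were taken is not given in the sources used here. Tgfb3, which was in no list, was at 5.49, 5.22 and 5.48 in controls against 3.87, 3.77 and 3.76 in OIR mice and had the fourth smallest p-value of all genes tested (-1.61 ± 0.13 SE, adjusted p = 0.00484).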
